A study of Mus musculus with 96 samples.

Results

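Glutamate and GABA are the main excitatory and inhibitory transmitters of the brain, and their receptors are assembled from subunits that are each the product of a separate gene. AMPA, kainate and NMDA receptors are glutamate-gated cation channels, whereas metabotropic glutamate receptors act through G proteins. GABA-A receptors are chloride channels of several subunit classes (alpha, beta, gamma, delta, epsilon, theta, pi and rho), and the GABA-B receptor is a G protein-coupled pair in which Gabbr1 binds GABA and Gabbr2 couples to the G protein. In the striatum most neurons are GABAergic projection neurons that receive glutamatergic input from the cortex and the thalamus, and these cells carry the dopamine receptors on which antipsychotics act.

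The genes of these receptors were taken by symbol, as the Gria, Grik, Grin, Grm, Gabr and Gabbr families. The array annotation paired 39 such genes with a transcript cluster, out of 19505 genes with a symbol, and each of the 39 had 1 cluster. They comprised 4 AMPA, 5 kainate, 6 NMDA, 6 metabotropic glutamate, 16 GABA-A and 2 GABA-B receptor subunits. Members of these families without a cluster in that annotation are not analysed here.

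Expression was measured on mouse Clariom S arrays in striatum, liver, pancreas and gonadal fat of the same 24 C57BL/6JOlaHsd mice, which arrived at 6 weeks of age. Mice received olanzapine at 3.5 mg/kg, risperidone at 1 mg/kg or vehicle once a day under the skin for 28 days, and all 3 groups received the same carrier, saline with DMSO and Tween 20. Each group held 4 females and 4 males, so that a tissue had 8 mice per group and the series 96 arrays. Both drugs were given at a single dose and the doses differ, so a difference between the drugs is one between these regimens. Values are log2 signals, on which a difference of 1 is a 2-fold change, and they compare samples for the same gene and not genes with each other. The median over genes differed little between arrays of a tissue, with ranges of 7.66 to 7.74 (striatum), 6.12 to 6.29 (liver), 6.69 to 6.90 (pancreas) and 7.41 to 7.65 (fat). Since tissues were hybridized from bulk RNA, fewer cells of a type and less RNA per cell cannot be told apart.

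The striatal samples fell into separate levels of genes that mark other parts of the forebrain. Slc17a6, the vesicular glutamate transporter of thalamic and other subcortical neurons, was between 11.60 and 13.31 in 7 of 8 olanzapine mice and 7.63 in male M9. It was 12.48 in the risperidone female F23 and between 6.43 and 9.35 in the other 7 risperidone mice. Among vehicle mice it was between 12.26 and 12.92 in F20, M3, M19 and M21 and between 6.61 and 8.32 in the other 4. Calb2, a calcium-binding protein abundant in the thalamus, was high in the same 12 mice, at 11.90 or more, and at 8.71 or less in the remaining mice. The mean of 10 of 10 markers of thalamus, septum and pallidum neurons ranged from 8.00 to 12.84 in olanzapine mice, from 8.17 to 11.82 in risperidone mice and from 8.00 to 12.62 in vehicle mice. The mean of 12 of 14 markers of striatal projection neurons ranged from 11.21 to 14.10 in olanzapine mice, from 14.13 to 15.17 in risperidone mice and from 13.11 to 15.12 in vehicle mice, so that the tissue carried its defining neurons in every group and the ranges of the 2 drug groups did not meet. Exact two-sided permutation tests set 9 brain marker lists of each drug against vehicle, 18 tests in all, and 0 passed after adjustment. By this permutation test the projection neuron mean differed by -0.89 for olanzapine (p = 0.0462, adjusted p = 0.39) and by 0.51 for risperidone (p = 0.109, adjusted p = 0.39). For the thalamic list the differences were 1.26 for olanzapine (exact permutation p = 0.218, adjusted p = 0.484) and -0.92 for risperidone (exact permutation p = 0.296, adjusted p = 0.484). The choroid plexus list, of 8 measured genes, differed by 1.49 for risperidone (exact permutation p = 0.0466, adjusted p = 0.39).

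**Figure D1:**
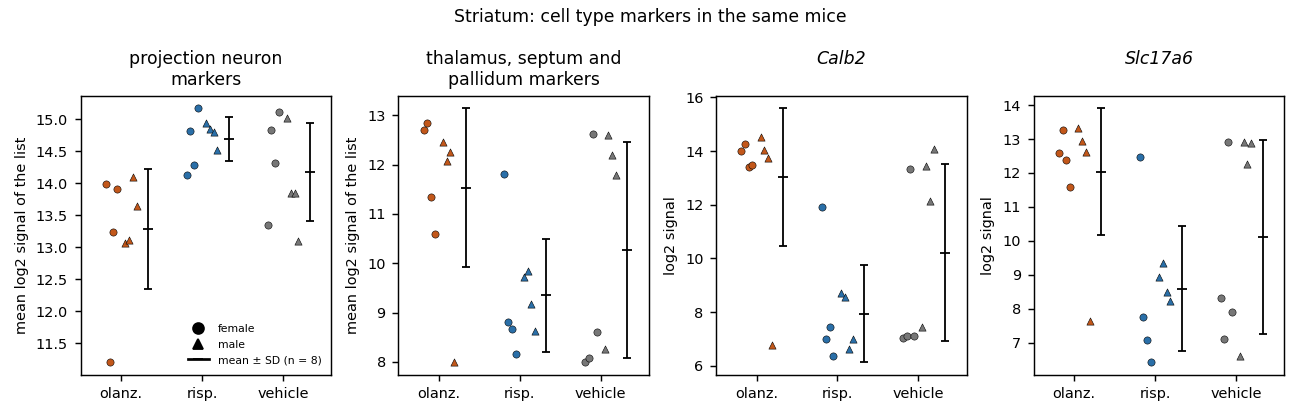
Mean log2 signal of striatal projection neuron markers and of thalamus, septum and pallidum markers, and log2 signal of Calb2 and Slc17a6, in the striatum of each mouse (circles, females; triangles, males), with the mean ± SD of 8 mice per group. Slc17a6 lies between 11.60 and 13.31 in 7 olanzapine mice, at 12.48 in 1 risperidone mouse and between 12.26 and 12.92 in 4 vehicle mice, and below 10 in the others.

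In the striatum, receptor subunits passed the threshold between the 2 drugs and not for either drug against vehicle. Between olanzapine and risperidone mice 11 of 39 subunits (28.2%) passed an adjusted p under 0.05 in limma, against 4.86% of all genes. Of these, 10 were higher in olanzapine mice, namely Grik1, Grik4, Grin2d, Grin3a, Grm2, Gabra3, Gabrb1, Gabrb2, Gabrq and Gabbr2, and Grm3 was lower. At an unadjusted p under 0.05, 14 subunits were higher (10.8% of all genes were) and 8 lower (8.26% of all genes). The median log2 difference over the 39 subunits was 0.02, beside -0.01 over all genes. The 24 subunits outside the rule for named genes differed by -0.62 to 0.94 between the drugs. The share of 4.86% includes many genes under the background limit set below. In a fit without genes above that limit in fewer than 8 mice, 12 subunits were called, beside 11.5% of the 10318 genes kept.

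Genes of the marker lists described above also differed between the drugs. Among the called subunits with a value of M9 given below, M9 was the lowest olanzapine mouse for Grik1, Grin2d, Grin3a, Gabrb1, Gabrb2 and Gabrq. It was the highest for Grm3 and Grik4 and at neither end for Grm2. An association of the subunits with Slc17a6 was not tested. Of the 12 measured projection neuron markers, 11 were called lower in olanzapine than in risperidone mice, and of the 10 thalamus, septum and pallidum markers Calb2 and Trpc4 were called higher. Of those 10, 8 were higher and 0 lower at an unadjusted p under 0.05. The median log2 difference was 2.01 over the thalamus, septum and pallidum list and -1.56 over the projection neuron list. With the projection neuron mean as a further term of the fit, the 11 subunit differences kept their sign at 18.5% to 89.5% of their size and 0 were called (adjusted p between 0.824 and 0.958), as were 0 of all genes. Since the ranges of this mean did not meet between the 2 drug groups, that fit cannot tell marker level from drug. With the thalamic mean as a further term, the 11 differences kept their sign at 36.1% to 120% of their size. In that fit 0 of them were called (adjusted p between 0.157 and 0.563), beside 0.0154% of all genes. The part of the marker levels in the differences was not tested beyond these fits. In females alone Grik1, Grin3a and Gabrb1 were called (0.487% of all genes). In males alone 0 subunits were called, as were 0% of all genes, with 13 subunits at an unadjusted p under 0.05. Without risperidone F6, 7 of the 39 subunits were called (2.39% of all genes), as were 7 without olanzapine F26 (2.10%) and 14 without olanzapine M9 (9.56%).

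Against vehicle, neither drug had a called subunit. Olanzapine mice had 8 subunits higher and 1 lower at an unadjusted p under 0.05 (5.94% and 4.60% of all genes), with 0 called (0% of all genes), and the median difference over the 39 subunits was -0.03. Leaving out olanzapine M9, which had Slc17a6 at 7.63, gave 3 called subunits (Grik1, Grin3a and Gabrq), where 1.04% of all genes were called. Leaving out vehicle M3 gave 2 (Grik1 and Gabrq), where 0.595% of all genes were called. Risperidone mice had 1 subunit higher and 3 lower at an unadjusted p under 0.05 (2.96% and 2.44% of all genes), with 0 called (0% of all genes) and a median difference of 0.01. That count of 4 was 2 to 9 when single mice were left out. Both comparisons rest on the same 8 vehicle mice.

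**Figure D2:**
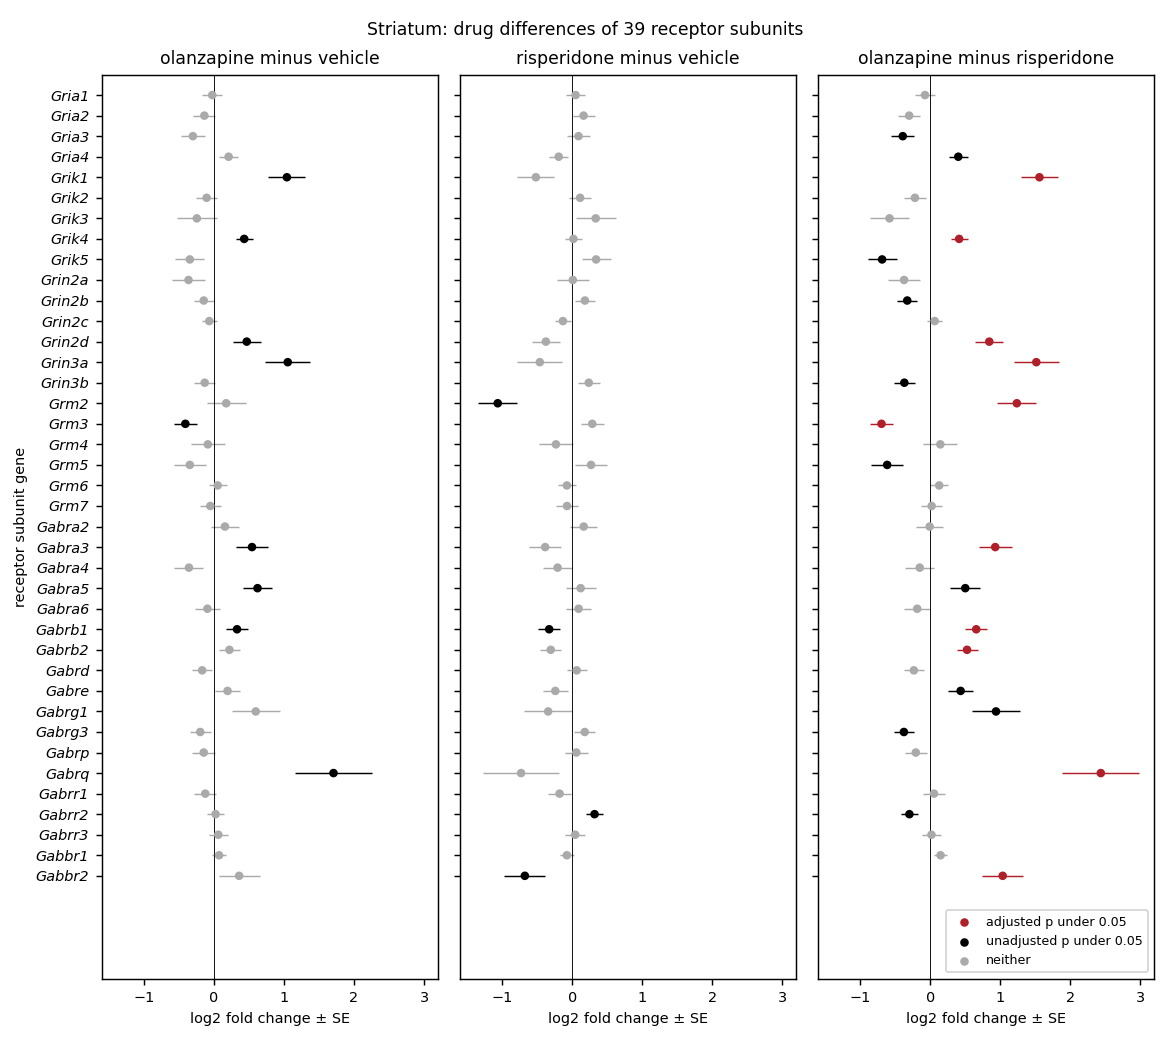
Log2 fold change ± SE of the 39 receptor subunits in the striatum for olanzapine minus vehicle, risperidone minus vehicle and olanzapine minus risperidone, grouped by receptor family. Red points have an adjusted p under 0.05 and black points an unadjusted p under 0.05. The 11 red points stand in the panel of the 2 drugs, with Gabrq at 2.44 and Grm3 at -0.70.

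Among kainate receptor subunits, Grik1, which encodes the channel-forming subunit GluK1, showed the lowest p of the 39 genes between the drugs. Its lowest, median and highest log2 signals were 7.81, 9.31 and 9.50 in olanzapine mice, 6.86, 7.56 and 8.06 in risperidone mice and 7.13, 8.16 and 9.17 in vehicle mice. Apart from male M9, each olanzapine mouse lay above all risperidone mice, and the vehicle mice spread over both. The background limit of 7.60, set below, was exceeded by 8 of 8 olanzapine, 4 of 8 risperidone and 5 of 8 vehicle mice. Part of the risperidone and vehicle signals thus lie under the limit, where they cannot be told from those of background genes. The log2 difference was 1.56 ± 0.26 (SE) between olanzapine and risperidone (adjusted p = 0.0103), 1.04 ± 0.26 between olanzapine and vehicle (adjusted p = 0.234) and -0.52 ± 0.26 between risperidone and vehicle (adjusted p = 0.913). Among vehicle mice, Grik1 was 8.64, 9.17, 8.41 and 8.08 in F20, M3, M19 and M21, the mice with high Slc17a6, and 8.23, 7.41, 7.13 and 7.41 in F1, F2, F21 and M1.

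Grik4 encodes GluK4, a subunit that forms functional channels only with GluK1 to GluK3. It ranged from 9.61 to 10.26 (median 9.87) in olanzapine mice, from 8.90 to 9.73 (median 9.59) in risperidone mice and from 9.32 to 9.63 (median 9.46) in vehicle mice. Here M9 held the highest olanzapine value, 10.26, and the vehicle mice had 9.32 to 9.54 where Slc17a6 was high and 9.35 to 9.63 where it was low. The difference was 0.41 ± 0.12 between olanzapine and risperidone (adjusted p = 0.0497), and the call was lost when arrays were centred on their medians (adjusted p = 0.0677) or quantile normalized (adjusted p = 0.0832) and when the fit held the 16 mice of both drugs alone (adjusted p = 0.0854). With single mice left out it held in 4 of 16 fits, those without risperidone M5 or M23 or olanzapine F7 or M27 (adjusted p up to 0.12). Against vehicle it was 0.43 ± 0.12 for olanzapine (adjusted p = 0.268) and 0.02 ± 0.12 for risperidone (adjusted p = 0.99).

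For Grik5, the high-affinity partner subunit GluK5, the difference between the drugs was negative and missed the threshold. Its signal was 11.99 to 13.45 (median 12.60) in olanzapine mice, 12.52 to 13.58 (median 13.46) in risperidone mice and 12.31 to 13.77 (median 13.02) in vehicle mice, with a difference of -0.69 ± 0.21 between the drugs (adjusted p = 0.05004). The 4 AMPA receptor subunits, which carry most fast excitatory transmission, had 0 calls. Gria3 was nearest among them for olanzapine, at 13.55 to 14.56 (median 14.02) in olanzapine mice, 14.01 to 14.56 (median 14.49) in risperidone mice and 13.70 to 14.92 (median 14.27) in vehicle mice, which overlapped. It differed by -0.30 ± 0.17 between olanzapine and vehicle (adjusted p = 0.538).

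In the NMDA receptor family, Grin3a and Grin2d were higher in olanzapine than in risperidone mice. Grin3a encodes GluN3A, a subunit that lowers the calcium permeability of NMDA receptors. Its signal was 7.55 to 10.11 (median 9.56) in olanzapine mice, 7.30 to 8.65 (median 7.70) in risperidone mice and 7.09 to 9.44 (median 8.20) in vehicle mice. Of the 8 mice per group, 7 olanzapine, 6 risperidone and 7 vehicle mice exceeded the background limit of 7.60. The lowest olanzapine value was again that of M9 and the highest risperidone value that of F23. It differed by 1.51 ± 0.32 between the drugs (adjusted p = 0.0115), by 1.05 ± 0.32 between olanzapine and vehicle (adjusted p = 0.268) and by -0.46 ± 0.32 between risperidone and vehicle (adjusted p = 0.915). Grin2d encodes GluN2D, a subunit that gives slowly closing channels. It was 7.35 to 8.66 (median 8.30) in olanzapine mice, 7.11 to 8.24 (median 7.26) in risperidone mice and 7.26 to 8.53 (median 7.66) in vehicle mice. The background limit of 7.60, set below, was exceeded by 7 of 8 olanzapine, 2 of 8 risperidone and 4 of 8 vehicle mice. The signals of most risperidone mice thus cannot be told from those of background genes. Here too M9 was the lowest olanzapine mouse, and F23, at 8.24, was the only risperidone mouse within the range of the other 7 olanzapine mice. The difference was 0.84 ± 0.20 between the drugs (adjusted p = 0.0152), 0.47 ± 0.20 for olanzapine against vehicle (adjusted p = 0.399) and -0.38 ± 0.20 for risperidone against vehicle (adjusted p = 0.913).

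The metabotropic receptors Grm2 and Grm3 both inhibit adenylyl cyclase, and they moved in opposite directions. Grm2 was 8.90 to 10.12 (median 9.87) in olanzapine mice, 7.23 to 9.40 (median 8.48) in risperidone mice and 8.29 to 10.40 (median 9.53) in vehicle mice. Risperidone mice were at the low end, and 5 of them lay below the lowest olanzapine value. Between olanzapine and risperidone Grm2 differed by 1.24 ± 0.28 (adjusted p = 0.0131). It had the lowest p of the 39 subunits for risperidone against vehicle, at -1.06 ± 0.28 (adjusted p = 0.718), whereas olanzapine differed from vehicle by 0.17 ± 0.28 (adjusted p = 0.875). By mouse, Grm2 was 9.80 in M9 and 8.95 in F23. The vehicle mice F20, M3, M19 and M21, with high Slc17a6, had 9.84, 9.44, 9.81 and 9.60 beside 10.40, 9.45, 8.29 and 9.32 in F1, F2, F21 and M1.

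Grm3, also present in astrocytes, was 12.39 to 13.33 (median 12.90) in olanzapine mice, 13.32 to 13.83 (median 13.65) in risperidone mice and 12.50 to 13.88 (median 13.43) in vehicle mice. The drug groups met only at M9 (13.33) and F23 (13.32). Grm3 fell in olanzapine mice by 0.70 ± 0.16 relative to risperidone mice (adjusted p = 0.0143), and differed from vehicle by -0.41 ± 0.16 for olanzapine (adjusted p = 0.362) and by 0.29 ± 0.16 for risperidone (adjusted p = 0.915). The mean of the 6 astrocyte markers was 11.68 to 12.69 in olanzapine mice, 11.82 to 12.29 in risperidone mice and 11.78 to 12.25 in vehicle mice.

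The start regions of these genes are shown because both receptors couple to the same G protein class and yet differed between the drugs in opposite directions. Each is 250 bases before to 50 bases after a RefSeq start on GRCm38.p6, Grm2 at chr9:106656060-106656359 and Grm3 at chr5:9725303-9725602, both on the minus strand, printed 5′ to 3′. Capitals mark the GC box GGGCGG, the CCAAT box CCAAT or the left arm of the RE1 element, TTCAGCACC, on either strand; overlapping boxes run together.
Grm2: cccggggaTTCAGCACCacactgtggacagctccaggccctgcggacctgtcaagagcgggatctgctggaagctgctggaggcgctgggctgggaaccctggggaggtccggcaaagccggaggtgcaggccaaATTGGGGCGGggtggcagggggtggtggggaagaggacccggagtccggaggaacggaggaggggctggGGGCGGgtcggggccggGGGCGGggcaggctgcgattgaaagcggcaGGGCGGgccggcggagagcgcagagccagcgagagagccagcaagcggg
Grm3: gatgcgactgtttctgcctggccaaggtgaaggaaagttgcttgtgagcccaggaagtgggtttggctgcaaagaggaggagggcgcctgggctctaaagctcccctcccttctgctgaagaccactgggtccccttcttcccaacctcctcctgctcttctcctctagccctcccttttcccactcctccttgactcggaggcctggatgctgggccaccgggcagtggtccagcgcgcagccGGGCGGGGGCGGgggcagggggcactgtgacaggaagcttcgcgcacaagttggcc
The Grm2 window held 4 GC boxes, 1 CCAAT box and 1 RE1 left arm, a sequence that the neuronal repressor REST recognises together with a right arm, and the Grm3 window held 2 GC boxes. GC boxes occurred in 35.7% of 32851 mouse windows of this length, CCAAT boxes in 37.4% and the RE1 left arm in 0.371%. Among the 35 windows of 30 receptor subunits, 48.6%, 40% and 2.86% held them. The last share is 1 window, that of Grm2 itself, so it is no separate comparison with all windows. The RE1 arm was added to the search after the sequence had been seen, and TATAAA and the cAMP response element TGACGTCA, also searched on both strands, were in neither window (13.6% and 1.79% of all windows). A match says nothing of binding.

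**Figure D3:**
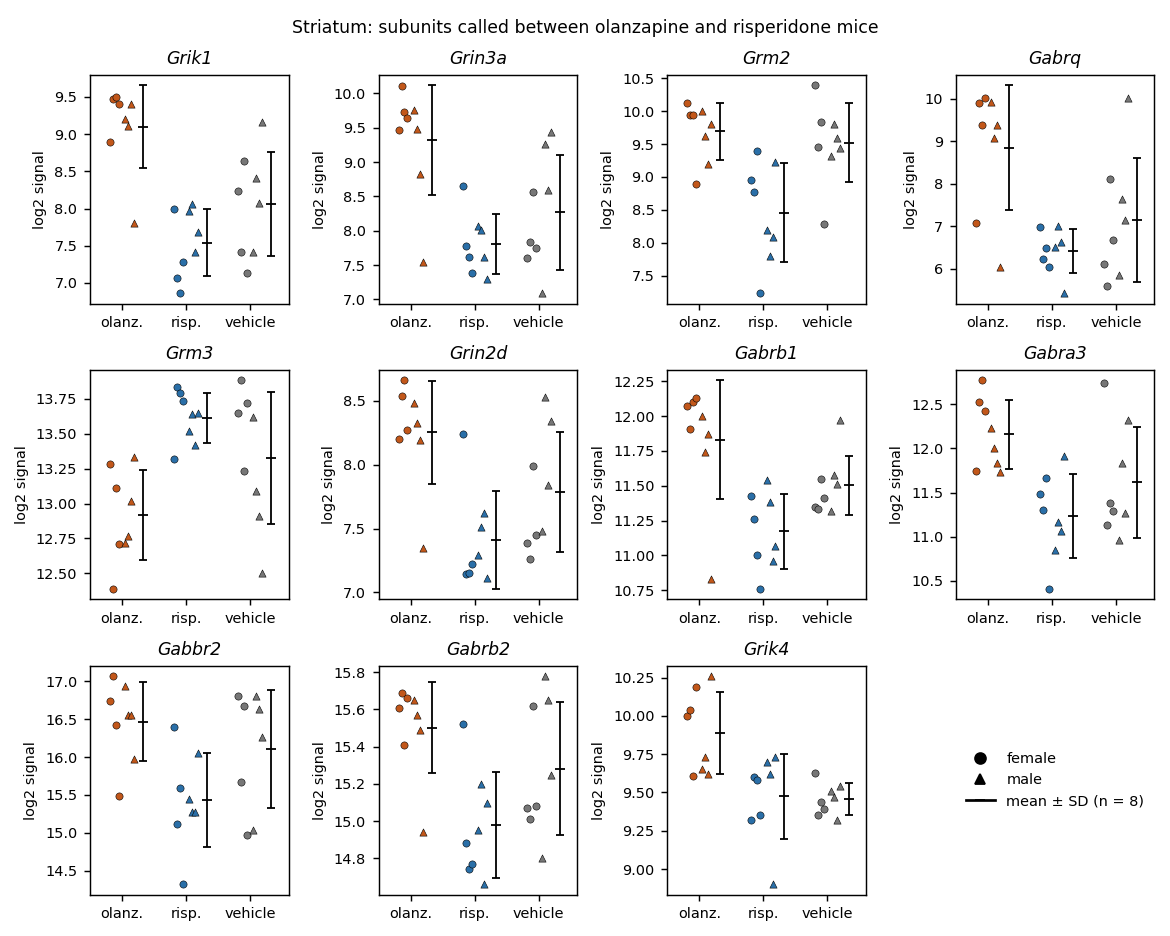
Log2 signal of the 11 subunits called between olanzapine and risperidone mice, in the striatum of each mouse (circles, females; triangles, males), with the mean ± SD of 8 mice per group. The olanzapine mean lies above the risperidone mean for 10 subunits and under it for Grm3, with olanzapine male M9 apart from its group for Grik1, Grin2d, Gabrb1 and Gabrb2.

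Of the 16 GABA-A receptor subunits, Gabra3, Gabrb1, Gabrb2 and Gabrq were called higher in olanzapine than in risperidone mice. Gabrq, which encodes the theta subunit found in restricted subcortical nuclei, was above background in part of the mice. It was 6.04 to 10.02 (median 9.38) in olanzapine mice, 5.42 to 7.01 (median 6.49) in risperidone mice and 5.58 to 10.02 (median 6.91) in vehicle mice. M9 was again the lowest olanzapine mouse, and the vehicle mice F20, M3, M19 and M21 had 8.10, 10.02, 7.64 and 7.14 beside 6.10, 5.58, 6.68 and 5.86 in F1, F2, F21 and M1. The difference was 2.44 ± 0.55 between the drugs (adjusted p = 0.0132), 1.71 ± 0.55 for olanzapine against vehicle (adjusted p = 0.274) and -0.73 ± 0.55 for risperidone against vehicle (adjusted p = 0.915). The background limit of 7.60 was exceeded by 6 of 8 olanzapine, 0 of 8 risperidone and 3 of 8 vehicle mice. With risperidone mice set to that limit and olanzapine values left as measured, Gabrq was 2.37-fold higher in olanzapine mice. The measured means were 8.85 in olanzapine and 6.41 in risperidone mice. Since 2 of 8 olanzapine mice were not above the limit either, 2.37-fold is not a strict lower bound. The fitted differences are between partly unmeasured levels.

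Gabra3, the alpha 3 subunit, lies on chromosome X, as do Gabrq and Gabre. Gabra3 was 11.73 to 12.77 (median 12.12) in olanzapine mice, 10.41 to 11.92 (median 11.24) in risperidone mice and 10.96 to 12.74 (median 11.34) in vehicle mice. Its difference was 0.93 ± 0.23 between the drugs (adjusted p = 0.022, up to 0.0559 with single mice left out, not called without risperidone F6 or olanzapine F7 or F26), 0.54 ± 0.23 for olanzapine against vehicle (adjusted p = 0.404) and -0.39 ± 0.23 for risperidone against vehicle (adjusted p = 0.915). Gabre, the epsilon subunit, exceeded the limit in 1 of 24 mice and differed by 0.43 ± 0.18 between the drugs (adjusted p = 0.178).

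Gabrb1 and Gabrb2 encode beta subunits, which form the GABA binding site together with an alpha subunit. Gabrb1 was 10.83 to 12.13 (median 11.96) in olanzapine mice, 10.76 to 11.54 (median 11.17) in risperidone mice and 11.32 to 11.97 (median 11.46) in vehicle mice. Apart from M9, each olanzapine mouse lay above all risperidone mice. The difference was 0.66 ± 0.16 between the drugs (adjusted p = 0.0166), 0.33 ± 0.16 for olanzapine against vehicle (adjusted p = 0.46) and -0.33 ± 0.16 for risperidone against vehicle (adjusted p = 0.913). Gabrb2 was 14.94 to 15.69 (median 15.59) in olanzapine mice, 14.66 to 15.52 (median 14.92) in risperidone mice and 14.80 to 15.78 (median 15.17) in vehicle mice, where M9 was the lowest of its group and F23 the highest of its own. It differed by 0.53 ± 0.15 between the drugs (adjusted p = 0.0398), a call that held in 3 of 16 fits with a single mouse left out, those without risperidone F23 or M24 or olanzapine M9 (adjusted p up to 0.0925). It differed by 0.22 ± 0.15 for olanzapine against vehicle (adjusted p = 0.64) and by -0.31 ± 0.15 for risperidone against vehicle (adjusted p = 0.913).

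Gabra4, Gabre and Gabbr1 are named beside their partners after their values were seen. Gabra4, the alpha 4 subunit of striatal projection neurons, lies head to head with Gabrb1 on chromosome 5. Their RefSeq starts are 387 bases apart on opposite strands, and the RefSeq genes overlap by 388 bases. The bases printed before each start thus lie within the other gene. Gabra4 differed by -0.15 ± 0.21 between the drugs (adjusted p = 0.763) and by -0.36 ± 0.21 between olanzapine and vehicle (adjusted p = 0.563). The start regions of this pair are shown because the genes overlap at their starts, Gabrb1 at chr5:71657671-71657970 on the plus strand and Gabra4 at chr5:71658259-71658558 on the minus strand (GRCm38.p6, RefSeq, 5′ to 3′, capitals as for Grm2).
Gabrb1: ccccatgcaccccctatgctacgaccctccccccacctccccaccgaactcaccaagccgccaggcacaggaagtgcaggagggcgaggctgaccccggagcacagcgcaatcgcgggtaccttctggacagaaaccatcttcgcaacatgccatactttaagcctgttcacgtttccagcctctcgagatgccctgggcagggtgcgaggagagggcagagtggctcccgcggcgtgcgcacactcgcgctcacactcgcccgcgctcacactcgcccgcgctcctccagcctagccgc
Gabra4: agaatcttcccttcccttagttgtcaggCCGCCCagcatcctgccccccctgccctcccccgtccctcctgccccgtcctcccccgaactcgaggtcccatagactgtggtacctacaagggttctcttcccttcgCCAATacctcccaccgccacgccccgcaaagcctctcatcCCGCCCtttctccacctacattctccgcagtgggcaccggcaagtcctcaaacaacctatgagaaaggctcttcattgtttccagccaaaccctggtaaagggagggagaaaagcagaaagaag
The Gabra4 window held 2 GC boxes and 1 CCAAT box, and the Gabrb1 window held 0 of the 5 motifs searched. Their GC content was 58.7% and 66%, beside a median of 52.7% over all windows.

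Gabra5, the alpha 5 subunit of extrasynaptic receptors, was 12.77 to 13.66 (median 13.32) in olanzapine mice, 12.28 to 13.49 (median 12.66) in risperidone mice and 11.89 to 13.42 (median 12.66) in vehicle mice. It differed by 0.62 ± 0.21 for olanzapine against vehicle (adjusted p = 0.299) and by 0.50 ± 0.21 between the drugs (adjusted p = 0.188). Gabrr2, a rho subunit best known from the retina, lay below the background limit, with 6.39 to 6.98 (median 6.69) in olanzapine mice, 6.74 to 7.26 (median 6.91) in risperidone mice and 6.19 to 7.02 (median 6.70) in vehicle mice. For risperidone against vehicle it differed by 0.32 ± 0.12 (adjusted p = 0.913). Both GABA-B subunits were seen in 24 of 24 mice. Gabbr2 was 15.48 to 17.07 (median 16.56) in olanzapine mice, 14.32 to 16.40 (median 15.36) in risperidone mice and 14.97 to 16.81 (median 16.45) in vehicle mice. It differed by 1.03 ± 0.29 between the drugs (adjusted p = 0.0391). That call was lost with a trended and robust variance (adjusted p = 0.0719) and held in 5 of 16 fits with a single mouse left out, those without risperidone F5, F23 or M5 or olanzapine F9 or M9 (adjusted p up to 0.0998). Gabbr2 differed by 0.36 ± 0.29 for olanzapine against vehicle (adjusted p = 0.711) and by -0.68 ± 0.29 for risperidone against vehicle (adjusted p = 0.913), while Gabbr1 differed by 0.15 ± 0.10 between the drugs (adjusted p = 0.45).

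The drug responses of females and males were compared by an interaction term. For olanzapine, 4 of 39 subunits had an unadjusted p under 0.05 (6.01% of all genes) and 0 an adjusted one (0% of all genes). Grin3a differed from vehicle by 0.31 in males and 1.80 in females (adjusted p = 0.808). The others were Grin2d (0.04 in males, 0.90 in females), Gabrb1 (0.02 in males, 0.64 in females) and Grm3 (-0.07 in males, -0.75 in females). For risperidone 1 subunit did (5.78% of all genes) and 0 after adjustment (0% of all genes). That subunit was Grin2b, which encodes GluN2B, at 0.51 in males and -0.15 in females (adjusted p = 0.852). The vehicle mice with high Slc17a6 were 3 males and 1 female, and M9 is a male. In the liver the interaction had an unadjusted p under 0.05 for 1 subunit for olanzapine (5.41% of all genes) and 0 for risperidone (4.78%). The pancreas had 2 for olanzapine (4.03%) and 1 for risperidone (4.96%), and the fat 2 for olanzapine (2.54%) and 4 for risperidone (13.2%). After adjustment 0 subunits passed in these tissues, with a lowest adjusted p of 0.323 for risperidone in fat, where 0.0513% of all genes passed, against 0% in the other comparisons.

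Other genes of the glutamate and GABA synapse were also called between the drugs, a comparison in which 4.86% of all genes were called. In the same mice 11 of 12 projection neuron markers were called lower in olanzapine mice. With the projection neuron mean as a term 0 of all genes were called, these included, in a fit that cannot tell marker level from drug. The part of the marker levels was not tested further. Of 13 AMPA and kainate receptor auxiliary subunits, 4 were called lower in olanzapine than in risperidone mice and 0 higher, with a list median of -0.35. They were Gsg1l (-1.09 ± 0.24, adjusted p = 0.0124), Neto2 (-0.73 ± 0.19, adjusted p = 0.0257), Cacng3 (-0.77 ± 0.20, adjusted p = 0.0272) and Neto1 (-0.82 ± 0.22, adjusted p = 0.0291), where Neto1 and Neto2 are kainate receptor partners and Cacng3 and Gsg1l accompany AMPA receptors. Of 13 scaffold proteins of the excitatory postsynapse, 3 were called lower and 1 higher (median -0.01). Homer1, which tethers group I metabotropic receptors, differed by -1.19 ± 0.24 (adjusted p = 0.0109) and its relative Homer2 by 1.07 ± 0.27 (adjusted p = 0.0222), while Dlg2 and Dlg1 were lower.

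The calls of the next lists between the drugs also stand beside 4.86% of all genes. Among 7 measured genes of glutamate transport and metabolism, 2 were called higher and 0 lower (median -0.01), namely the neuronal glutamate transporter Slc1a6 (1.22 ± 0.27, adjusted p = 0.0128) and Slc17a6 (3.45 ± 0.98, adjusted p = 0.0396), the gene whose levels separated the mice above. Among 7 measured genes of GABA transport and metabolism, the GABA-synthesizing enzyme Gad1 was called lower (-0.60 ± 0.14, adjusted p = 0.0139) and the GABA transporter Slc6a11 higher (1.77 ± 0.51, adjusted p = 0.0402), with a median of 0.02. Of 6 related receptor genes outside the rule, the glycine receptor subunits Glra1 (3.19 ± 0.85, adjusted p = 0.0291) and Glra2 (0.97 ± 0.28, adjusted p = 0.0433) were called higher (median 0.60). The 8 measured genes of GABA receptor anchoring and auxiliary proteins had 0 calls, with 1 higher and 2 lower at an unadjusted p under 0.05 and a median of -0.07. Against vehicle, these 6 lists, of 7, 7, 13, 13, 8 and 6 measured genes, had 0 calls for either drug (0% of all genes for both). For olanzapine, 7 members were higher and 4 lower at an unadjusted p under 0.05 (5.94% and 4.60% of all genes). For risperidone, 2 were higher and 2 lower (2.96% and 2.44% of all genes).

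A subunit was taken as seen in a tissue where its median over the 24 mice exceeded the 95th percentile of 1497 genes of olfactory, vomeronasal and taste receptors and keratin-associated proteins on the same arrays. That limit was 7.60 for striatum (54.8% of the other genes exceeded it), 6.42 for liver (49.8%), 9.31 for pancreas (4.91%) and 9.25 for fat (19.2%). In the pancreas and fat, whose RNA was labelled with another kit, the limit thus separates few genes, and a subunit below it is not shown to be absent. Probes differ in affinity, so in the striatum and liver too a level at or below the limit is not an absence.

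In the striatum 30 of 39 subunits were seen, among them the 4 AMPA, the 5 kainate and both GABA-B subunits, 5 of 6 NMDA, 5 of 6 metabotropic and 9 of 16 GABA-A subunits. Below the limit were Gabra6, known from cerebellar granule cells, Gabre, Gabrp, Gabrq, the rho subunits Gabrr1, Gabrr2 and Gabrr3, Grin3b and Grm6, the last at 7.600 against a limit of 7.602. The liver had 3 subunits above its limit (Gabbr2, Gabbr1 and Grik5), and in the pancreas and the fat Gabbr1 was seen. At the 99th percentile of the background genes 26, 2, 0 and 0 subunits were seen in striatum, liver, pancreas and fat.

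**Figure D4:**
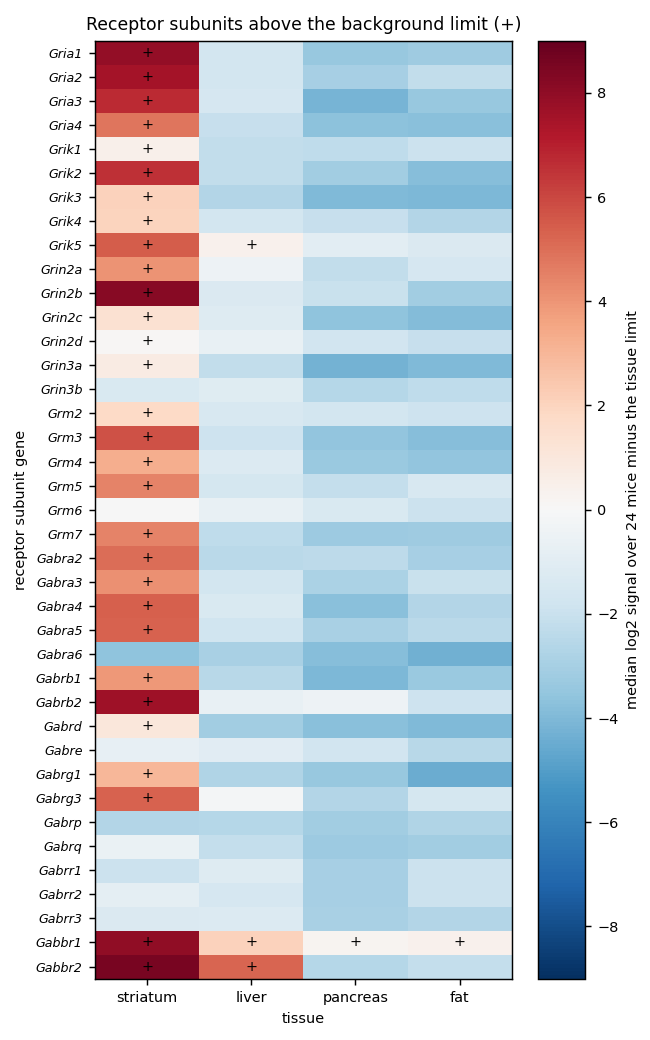
Median log2 signal over 24 mice of each receptor subunit minus the background limit of the tissue, in striatum, liver, pancreas and fat (color scale, red above and blue below the limit), with + for subunits above it. The striatum has 30 such subunits, the liver 3 and the pancreas and fat 1 each. Colors compare a gene with the limit, not genes with each other.

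In the liver, Gabbr2 stood well above the limit in 24 of 24 mice, with a median of 11.64. It was 10.67 to 12.55 (median 11.99) in olanzapine mice, 10.84 to 12.54 (median 11.64) in risperidone mice and 10.01 to 13.25 (median 10.96) in vehicle mice. The differences from vehicle were 0.50 ± 0.30 for olanzapine (adjusted p = 0.833) and 0.55 ± 0.30 for risperidone (adjusted p = 0.936), within the spread of the vehicle mice. Males had less Gabbr2 than females, at 10.01 to 11.98 (median 10.98, n = 12) in males and 10.72 to 13.25 (median 12.20, n = 12) in females, which overlapped. Male minus female was -0.95 ± 0.24 (adjusted p = 0.0152 in limma with drug as a term), in a comparison added after the values had been seen, in which 6.23% of all genes and 1 of 39 subunits were called. Within olanzapine mice alone the sex difference was -1.31 (adjusted p = 0.0162), within risperidone mice -0.72 (adjusted p = 0.215) and within vehicle mice -0.81 (adjusted p = 0.784). The mean of the hepatocyte markers was 18.53 to 18.95 in males and 18.89 to 19.18 in females, and that of the peripheral neuron markers 4.33 to 4.87 in males and 4.41 to 4.89 in females.

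Its partner Gabbr1 was 8.15 to 9.56 (median 8.39) in olanzapine mice, 8.28 to 8.97 (median 8.50) in risperidone mice and 7.85 to 8.92 (median 8.55) in vehicle mice, and lay above the limit in 24 of 24 mice. Grik5 was close to the limit, at 6.72 to 7.32 (median 6.77) in olanzapine mice, 5.84 to 7.32 (median 6.66) in risperidone mice and 6.15 to 7.63 (median 6.90) in vehicle mice, and 19 of 24 mice exceeded it. Gabbr1 and Grik5 differed from vehicle by 0.06 ± 0.18 and 0.04 ± 0.19 for olanzapine and by 0.10 ± 0.18 and -0.22 ± 0.19 for risperidone. For both drugs 0 of 39 subunits had an unadjusted p under 0.05 in the liver, against 6.56% of all genes for olanzapine and 5.40% for risperidone, and 0 were called, against 0.0205% and 0.0410%. Among subunits below the limit, the lowest p for olanzapine belonged to Gabrq and Grik1. Gabrq was 4.00 to 5.15 (median 4.33) in olanzapine mice, 3.92 to 4.74 (median 4.31) in risperidone mice and 3.90 to 4.50 (median 4.17) in vehicle mice and differed by 0.22 ± 0.15 (adjusted p = 0.866). Grik1 was 3.70 to 4.68 (median 4.17) in olanzapine mice, 3.74 to 4.71 (median 4.41) in risperidone mice and 3.94 to 5.12 (median 4.32) in vehicle mice and differed by -0.24 ± 0.17 (adjusted p = 0.876). For risperidone these were Gria2 and Grm4. Gria2 was 4.16 to 5.33 (median 4.66) in olanzapine mice, 4.06 to 4.92 (median 4.58) in risperidone mice and 4.24 to 5.32 (median 4.87) in vehicle mice and differed by -0.32 ± 0.19 (adjusted p = 0.956). Grm4 was 4.78 to 5.84 (median 5.13) in olanzapine mice, 4.70 to 6.18 (median 5.22) in risperidone mice and 4.71 to 5.52 (median 5.10) in vehicle mice and differed by 0.28 ± 0.17 (adjusted p = 0.956). The groups overlapped for each of these genes.

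**Figure D5:**
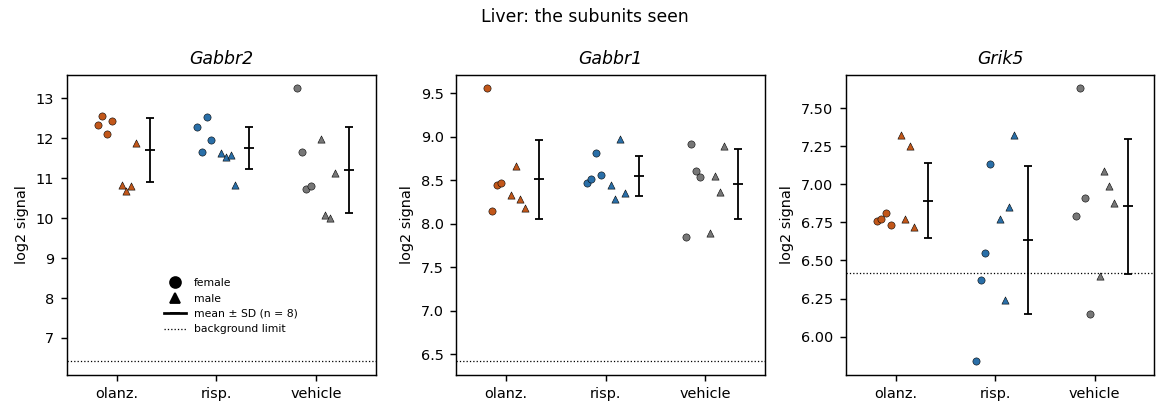
Log2 signal of Gabbr2, Gabbr1 and Grik5 in the liver of each mouse (circles, females; triangles, males), with the mean ± SD of 8 mice per group and the background limit of 6.42 as a dotted line. Gabbr2 and Gabbr1 lie above the limit in 24 mice and Grik5 in 19, and for Gabbr2 the males lie lower (male minus female -0.95).

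The pancreas samples differed widely in their own cell types: the mean of 5 of 6 acinar markers ranged from 11.51 to 18.81 in olanzapine mice, from 12.86 to 18.61 in risperidone mice and from 13.08 to 18.86 in vehicle mice. Islet markers (6 of 7) ranged from 7.82 to 9.75, from 7.80 to 10.15 and from 8.21 to 12.01 in the same order of groups. Gabbr1, the subunit seen there, was 9.01 to 10.30 (median 9.77) in olanzapine mice, 9.32 to 10.32 (median 9.50) in risperidone mice and 8.93 to 10.48 (median 9.54) in vehicle mice, and differed from vehicle by 0.08 ± 0.24 for olanzapine and -0.04 ± 0.24 for risperidone. At an unadjusted p under 0.05, risperidone mice had 3 of 39 subunits (3.24% of all genes), each below the limit, and olanzapine mice 0 (8.24% of all genes). With adjustment 0 were called for either drug (0% of all genes for both). The first of the 3 was Gabrp, the pi subunit of epithelia, at 5.02 to 7.38 (median 6.18) in olanzapine mice, 5.14 to 7.54 (median 6.84) in risperidone mice and 4.73 to 6.51 (median 5.56) in vehicle mice. It differed by 1.09 ± 0.35 for risperidone against vehicle (adjusted p = 0.999) and by 0.47 ± 0.35 for olanzapine (adjusted p = 0.741). Gria4, an AMPA receptor subunit, was 4.82 to 6.77 (median 6.02) in olanzapine mice, 5.43 to 7.21 (median 5.84) in risperidone mice and 4.87 to 6.05 (median 5.28) in vehicle mice, with differences from vehicle of 0.54 ± 0.29 for olanzapine (adjusted p = 0.631) and 0.66 ± 0.29 for risperidone (adjusted p = 0.999). The rho subunit Gabrr3 was 5.44 to 7.42 (median 6.32) in olanzapine mice, 6.11 to 7.51 (median 6.43) in risperidone mice and 5.66 to 6.89 (median 5.99) in vehicle mice and differed by 0.58 ± 0.26 for risperidone (adjusted p = 0.999). These ranges overlapped. For olanzapine the next lowest p belonged to Grm3, at 5.28 to 8.28 (median 6.05) in olanzapine mice, 5.09 to 6.17 (median 5.61) in risperidone mice and 5.27 to 6.50 (median 5.67) in vehicle mice (difference from vehicle 0.53, adjusted p = 0.676), and Gabra6, at 4.30 to 6.00 (median 5.50) in olanzapine mice, 4.85 to 6.82 (median 5.41) in risperidone mice and 5.02 to 7.69 (median 5.66) in vehicle mice (difference -0.50, adjusted p = 0.723). Leaving out vehicle F20 or M19 or risperidone F4 or M4 left Gabrp alone of the 3.

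In the fat, several male samples carried epididymal transcripts. Lcn5, a lipocalin secreted by the epididymis, was 14.75 in olanzapine M9, 19.39, 19.36 and 19.41 in risperidone M4, M5 and M23, and 13.17 in vehicle M19, and at 11.26 or less in the other 19 mice. In these samples Adipoq, the adipocyte hormone adiponectin, was 15.72 in olanzapine M9, 14.13, 14.17 and 14.98 in risperidone M4, M5 and M23 and 18.37 in vehicle M19, while the other mice had 17.57 to 18.67. The mean of 6 adipocyte markers was 12.80 to 14.71 in olanzapine mice, 11.48 to 14.45 in risperidone mice and 13.35 to 14.89 in vehicle mice. Gabbr1, the subunit seen in fat, was 9.45 to 10.59 (median 9.98) in olanzapine mice, 8.95 to 9.85 (median 9.52) in risperidone mice and 9.14 to 10.15 (median 9.65) in vehicle mice, with differences from vehicle of 0.31 ± 0.17 for olanzapine (adjusted p = 0.783) and -0.19 ± 0.17 for risperidone (adjusted p = 0.692).

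For subunits below the limit of the fat, olanzapine mice had 3 of 39 at an unadjusted p under 0.05 (5.46% of all genes) and risperidone mice 2 (9.03% of all genes), with 0 called (0% of all genes in both). Grm5, a receptor that activates phospholipase C, was 6.84 to 8.65 (median 7.75) in olanzapine mice, 7.13 to 8.28 (median 7.53) in risperidone mice and 7.61 to 9.18 (median 8.29) in vehicle mice. It differed from vehicle by -0.60 ± 0.23 for olanzapine (adjusted p = 0.783) and by -0.65 ± 0.23 for risperidone (adjusted p = 0.474). Without risperidone M4, M5 and M23, a setting chosen after seeing the data, the risperidone difference of Grm5 was -0.33. It was then no longer past the unadjusted threshold, which it passed with all mice. Gabrr2 was 6.88 to 7.84 (median 7.25) in olanzapine mice, 6.38 to 7.56 (median 6.99) in risperidone mice and 7.10 to 7.83 (median 7.41) in vehicle mice. It differed by -0.43 ± 0.19 for risperidone (adjusted p = 0.524), and by -0.11 without those 3 males. Grin3a was 4.88 to 5.74 (median 5.34) in olanzapine mice, 4.39 to 5.64 (median 4.73) in risperidone mice and 4.83 to 5.77 (median 5.27) in vehicle mice and differed by -0.33 ± 0.19 for risperidone (adjusted p = 0.593). For olanzapine, Grik5 was 7.91 to 8.64 (median 8.25) in olanzapine mice, 7.17 to 8.50 (median 7.72) in risperidone mice and 7.36 to 8.09 (median 7.72) in vehicle mice, a difference of 0.49 ± 0.17 against vehicle (adjusted p = 0.783). Gabrq was 5.24 to 6.55 (median 6.13) in olanzapine mice, 5.49 to 6.82 (median 6.13) in risperidone mice and 5.44 to 6.99 (median 6.46) in vehicle mice and differed by -0.42 ± 0.20 for olanzapine (adjusted p = 0.783). The part of the epididymal and adipocyte transcripts in these differences was not tested beyond leaving out those samples.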

How the data were processed

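The authors hybridized RNA of 96 samples to Clariom S arrays and deposited log2 values with 2 decimals, made by RMA (background correction, quantile normalization and probe summarization) in Expression Console 1.4 per the processing notes; a supplementary method names a further tool. Whether the 4 tissues were normalized together, and the genome build, are not given in the sources used here. Striatum and liver RNA was labelled with one kit and pancreas and fat RNA with another, so that levels were compared within a tissue.

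The platform annotation gave 19572 of 22206 transcript clusters 1 symbol and 2634 none. Clusters of a gene were averaged (55 genes), which left 19505 genes. Each tissue was fitted with limma 3.58.1 in R 4.3.3, with drug and sex as terms over 24 mice, and p-values were adjusted by Benjamini-Hochberg over the 19505 genes. Called means an adjusted p under 0.05, and differences are given ± SE. Each drug was set against vehicle and olanzapine against risperidone in the striatum. The fit was tested on simulated data. The number of mice, 8 per group, limits the precision.

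The values of every group were given for subunits called in any comparison, for the 10 with the lowest p per drug and the 5 between the drugs in the striatum, and for the 3 with the lowest p per drug and those seen in each other tissue. The receptor genes, marker lists and pathway lists were chosen with earlier results of these data known. Alternatives were other normalizations, a filter on dim genes, other covariates and variance estimates, each sex alone, marker means as terms and leaving out single mice. Start regions came from RefSeq (GRCm38.p6), and 39 of 39 genes matched RefSeq by gene ID.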

Additional observations from a re-analysis of the deposited data

Results flagged for a closer look

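In 11 of 102 groups of 8 mice, for the genes described with values, 1 mouse stood apart from its group by Dixon's criterion, of which chance gives about 1 in 20, or 5.1 groups.

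In the striatum, olanzapine male M9 stood apart for 4 subunits. It had 7.81 for Grik1 (others 8.90 to 9.50), 7.35 for Grin2d (others 8.19 to 8.66), 10.83 for Gabrb1 (others 11.74 to 12.13) and 14.94 for Gabrb2 (others 15.41 to 15.69). Risperidone female F23 stood apart for Grin2d, at 8.24 (others 7.11 to 7.62), and for Grik5, at 12.52 (others 13.29 to 13.58). Vehicle male M3 had 11.97 for Gabrb1 (others 11.32 to 11.58). Slc17a6 was 7.63 in M9, 12.48 in F23 and 12.88 in M3.

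In the liver, olanzapine female F25 had 9.56 for Gabbr1 (others 8.15 to 8.66) and olanzapine male M26 had 5.15 for Gabrq (others 4.00 to 4.51), below the background limit of that tissue. In the pancreas, Grm3 was 8.28 in olanzapine female F26 (others 5.28 to 6.54) and 6.50 in vehicle male M1 (others 5.27 to 5.79), also below the limit.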

How the results depend on the processing

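No paired analysis was possible because the groups of a tissue share no mouse, and the numbers in the labels name different mice of each group. Counts are of subunits at an unadjusted p under 0.05 unless they are called, in groups of 8 mice. Unadjusted counts stand here without the share of all genes in each setting, so they do not set the subunits apart from other genes. In the striatum, females alone gave 1 subunit for risperidone against vehicle (4 with all mice). For olanzapine they gave 1 called against vehicle (0 with all mice), where 0.415% of all genes were called. Between the drugs they gave 3 called (11 with all mice), where 0.487% of all genes were called. Males alone gave 0 unadjusted for olanzapine against vehicle (9 with all mice), and 13 unadjusted (22 with all mice) and 0 called (0% of all genes) between the drugs. With projection neuron markers as a term, there were 2 for risperidone (Grm2 and Gabrr2) and 3 for olanzapine (Grik1, Grik4 and Gabra5). Between the drugs that term gave 5 unadjusted and 0 called (0% of all genes). With thalamic markers as a term there were 2 for risperidone, and 12 unadjusted and 0 called (0.0154% of all genes) between the drugs.

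Leaving out single mice in the striatum gave 2 to 9 for risperidone and 5 to 15 for olanzapine, with 0 to 3 called for olanzapine and 7 to 14 called and 18 to 25 unadjusted between the drugs. The share of all genes called moved too, from 0% to 1.04% for olanzapine against vehicle. Between the drugs it was from 2.10% (without olanzapine F26) to 9.56% (without olanzapine M9). The 2 for risperidone came without vehicle F20, M19 or M21 or risperidone F4 or F6, 8 without vehicle F2, and 9 without vehicle M1 or risperidone F23. For olanzapine, 5 came without F26 and 15 without M9. In the other tissues, leaving out single mice gave 0 to 2 (risperidone) and 0 to 1 (olanzapine) for liver, 1 to 4 and 0 to 1 for pancreas, and 1 to 4 and 2 to 6 for fat. The liver counts moved without vehicle F1 or M1 (both drugs) or risperidone M4, and the pancreas counts for olanzapine without vehicle M21 or olanzapine F7, M9 or M25. In fat, risperidone had 1 without vehicle M1 or M21 or risperidone F5, M4, M5 or M23 and 4 without risperidone F6 or M24. Olanzapine had 5 in fat without vehicle F2 or M1 or olanzapine M27 and 6 without vehicle M19 or olanzapine F9.

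Without dim genes, 0 remained for risperidone in pancreas and 0 for either drug in fat, since the subunits concerned were among those left out. Males alone gave 1 (liver) and 3 (pancreas) for olanzapine, and 4 (risperidone) and 1 (olanzapine) for fat, while females alone gave 1 for olanzapine in pancreas. Without the 3 risperidone males rich in epididymal transcripts, fat had 1 for risperidone, and 0 without M9 and M19 too. At the 90th percentile of the background 5 subunits were seen in liver and 2 in pancreas, and at the 99th 0 in pancreas and 0 in fat. The sex difference of liver Gabbr2 was -0.72 in risperidone mice alone and -0.81 in vehicle mice alone, neither called. Gabra6 in the pancreas differed by 0.12 for olanzapine in males alone, against -0.50 with all mice. Of the other alternatives for named genes, 1185 kept direction and side of the threshold, 84 lost and 6 gained the threshold, and the cause was not tested. The 84 losses all fell on the 11 subunits called between the drugs in the striatum. Most of the 1185 were of genes not called in the main fit, which had no call to lose. In males alone, and with either marker mean as a term, 0 of the 11 stayed called, in fits where at most 0.0154% of all genes were called.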
